A study of Homo sapiens with 6 samples.

Results

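The genes described here supply the deoxynucleotides from which DNA is built: DCK, TK1, TYMS, RRM1, RRM2, DUT and DTYMK. These 7 genes were chosen by name, as enzymes of 1 pathway around DCK, when the difference between the compared groups was already known. That difference is therefore given below as a description without p-values, and the number of members called is printed only beside the share of all genes called. All 7 were listed in the deposited table, which held 11354 genes after its transcripts were summed, and all 7 were among the 10302 genes that reached a mean of 1 FPKM over the 6 libraries. FPKM counts fragments per transcript length and sequencing yield, so levels of different genes can be set side by side, though only roughly. The unit was assumed, and that scaling does not remove the GC trend or the uncertain division of shared reads described below.

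The cells were CAL-62, an established line from an anaplastic thyroid carcinoma, grown in DMEM with fetal bovine serum and antibiotics. One group of 3 libraries carried a vector and the other group of 3 overexpressed FOXK2, a forkhead transcription factor; neither group had a drug treatment in its labels. The submitters call the libraries of a group biological replicates, and how the cultures were separated, which promoter drove FOXK2 and whether the line was a pool or a clone are not stated there. The p-values therefore reflect only the spread among these cultures. FOXK2 itself stood at 16.3, 12.5 and 18.8 FPKM with vector and at 30.8, 36.2 and 30.1 FPKM with FOXK2, and reads of the introduced and the native gene cannot be told apart. The listed values summed to between 370457 and 395782 FPKM per vector library and between 335151 and 363133 FPKM per FOXK2 library, and the read depth is unknown. Of 9 thyroid markers 3 were listed, PAX8 at 82.6 to 155 FPKM, HHEX, and FOXE1 below 1 FPKM; among those not listed were TG, TSHR, SLC5A5, NKX2-1 and DIO2. Of 7 genes typical of carcinoma lines 6 were listed, CDH1 being the exception, and of the markers of other cells 2 of 5 for blood, 0 of 5 for endothelium and 2 of 6 for fibroblasts. The blood marker LYZ stood at 21.6 FPKM in FOXK2 replicate 2 and at 0.0951 to 0.330 FPKM in the other 5 libraries; its part in the results was not tested, and values of that library are given throughout.

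A cell makes deoxynucleotides in more than one way. Ribonucleotide reductase, built of the large subunit RRM1 and the small subunit RRM2, turns ribonucleoside diphosphates into deoxyribonucleoside diphosphates. Thymidylate is then made by TYMS, which methylates dUMP with a folate cofactor, while DUT breaks down dUTP, which keeps uracil out of DNA and yields the dUMP that TYMS uses. In the salvage route, DCK phosphorylates deoxycytidine, deoxyadenosine and deoxyguanosine, and TK1 phosphorylates thymidine in the cytosol. DTYMK adds the next phosphate to thymidylate from either route. DCK also activates the nucleoside drugs gemcitabine and cytarabine, and TYMS is the target of fluorouracil. Several of these genes are known targets of the E2F factors, which switch on genes of DNA synthesis as cells enter S phase.

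The RefSeq promoter windows of the genes, on the GRCh38.p14 build, are shown for the 4 members whose groups did not overlap and for both kinds of DUT start, which bear on a result; each runs from 250 bases before to 50 bases after an annotated start. All 7 genes matched, with 12 windows. The search covered both strands for E2F words (TTTCCCGC, TTTCGCGC, TTTGCCGC or TTTGGCGC), CCAAT, the forkhead word GTAAACA and the cell cycle words TTTGAA or TTCGAA, and these matches are in capitals below, on whichever strand they lie. The DCK window lies at chr4:70993399-70993698, that of TYMS at chr18:657403-657702, that of RRM1 at chr11:4094435-4094734, the downstream window of RRM2, shown for its CCAAT copies, at chr2:10122489-10122788, and those of the downstream and an upstream start of DUT at chr15:48331947-48332246 and chr15:48331179-48331478, all on the plus strand.
DCK: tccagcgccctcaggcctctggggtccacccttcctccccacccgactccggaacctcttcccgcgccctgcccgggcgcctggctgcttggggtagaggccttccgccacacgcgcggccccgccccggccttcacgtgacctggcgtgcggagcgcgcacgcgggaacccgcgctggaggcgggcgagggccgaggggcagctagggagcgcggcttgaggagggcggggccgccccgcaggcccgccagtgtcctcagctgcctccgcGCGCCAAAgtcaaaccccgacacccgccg
TYMS: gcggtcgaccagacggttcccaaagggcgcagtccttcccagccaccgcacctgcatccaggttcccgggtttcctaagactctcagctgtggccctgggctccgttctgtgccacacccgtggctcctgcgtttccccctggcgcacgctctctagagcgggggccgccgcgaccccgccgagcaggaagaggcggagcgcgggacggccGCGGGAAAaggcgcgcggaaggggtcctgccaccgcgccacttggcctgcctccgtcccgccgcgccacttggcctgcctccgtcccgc
RRM1: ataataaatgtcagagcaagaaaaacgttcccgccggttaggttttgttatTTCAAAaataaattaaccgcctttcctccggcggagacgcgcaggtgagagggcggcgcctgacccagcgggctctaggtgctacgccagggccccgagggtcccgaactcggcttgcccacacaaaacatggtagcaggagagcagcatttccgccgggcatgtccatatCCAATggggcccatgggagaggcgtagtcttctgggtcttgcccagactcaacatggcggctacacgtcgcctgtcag
RRM2, downstream window: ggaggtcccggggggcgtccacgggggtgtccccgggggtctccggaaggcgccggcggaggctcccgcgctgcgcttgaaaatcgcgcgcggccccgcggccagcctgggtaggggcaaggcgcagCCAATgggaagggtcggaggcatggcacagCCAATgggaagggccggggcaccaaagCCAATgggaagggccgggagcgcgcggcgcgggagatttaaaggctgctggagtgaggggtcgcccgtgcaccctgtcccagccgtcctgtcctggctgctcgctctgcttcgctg
DUT, downstream start: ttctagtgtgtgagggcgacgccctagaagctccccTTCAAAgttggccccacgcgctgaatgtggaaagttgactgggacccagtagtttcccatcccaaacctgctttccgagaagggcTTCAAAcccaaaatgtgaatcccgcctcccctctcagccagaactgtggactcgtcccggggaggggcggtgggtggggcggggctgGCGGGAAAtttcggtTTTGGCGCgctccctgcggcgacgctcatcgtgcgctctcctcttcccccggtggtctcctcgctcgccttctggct
DUT, upstream start: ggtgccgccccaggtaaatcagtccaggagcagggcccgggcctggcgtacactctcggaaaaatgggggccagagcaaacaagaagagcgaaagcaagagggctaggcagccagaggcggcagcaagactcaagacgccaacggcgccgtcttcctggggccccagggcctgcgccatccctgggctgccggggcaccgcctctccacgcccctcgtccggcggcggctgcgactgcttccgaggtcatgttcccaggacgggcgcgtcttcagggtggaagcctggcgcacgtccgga

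An E2F word was found in the window nearest to the most abundant transcript for 3 of 7 genes, and 3.31% of all 35116 RefSeq windows held one. DCK held its word 22 bases after the start, TYMS 39 bases before it, and the downstream start of DUT held a pair, 42 and 27 bases before it. The upstream start of DUT held none of these letters. RRM1 held CCAAT 28 bases before the start of its window. That start lies 124 bases from that of the full transcript and 21393 bases from that of ENST00000534285, the most abundant one. The RRM1 window is counted among the 7 all the same. RRM2 carried 3 copies of CCAAT in its downstream window, 123, 93 and 66 bases before the start; CCAAT was in the nearest window of 3 of 7 genes and in 34.6% of all windows. The forkhead word GTAAACA was in 0 of the 12 windows and in 3.42% of all, and variants of that word were not searched. The cell cycle words were in 3 of 7 nearest windows and 16.4% of all, the word GGGCGG in 6 of 7 and 45% of all, and TATAAA in 1 of 7 and 11.5% of all, with the last pair of motifs not in capitals above. These matches describe letters in a window and say nothing of a factor bound there.

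DCK, the rate-limiting kinase of deoxycytidine salvage, was the lowest of the 7 genes with vector and remained the lowest with FOXK2. It stood at 3.79, 2.74 and 1.49 FPKM with vector and at 19.1, 16.1 and 21.8 FPKM with FOXK2. The groups lay far apart, the lowest FOXK2 library being above the highest vector library. The means were 2.67 ± 1.15 FPKM and 19.0 ± 2.87 FPKM (SD, n = 3 each), a ratio of 7.12. In bulk samples, more cells that express a gene and more RNA per cell cannot be told apart. The difference on the log2(FPKM + 1) scale was 2.49 with a standard error of 0.25. DCK stood at the 16.6th percentile of tested genes by vector mean and at the 68.4th by FOXK2 mean.

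The same transcript did not carry DCK in every library. ENST00000286648, with 260 codons, made up the whole sum in the vector libraries and in FOXK2 replicate 1. In FOXK2 replicate 2, ENST00000504952, with 317 codons, gave 10.7 of the 16.1 FPKM, or 66.4% of the sum. These transcripts share 96.3% of the exonic bases of the shorter one, and the RefSeq start lies 11 bases from the start of the longer reading frame's transcript and 210 bases from that of ENST00000286648. How reads were divided between near-identical transcripts therefore bears on these values.

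Both subunits of ribonucleotide reductase were higher in every FOXK2 library than in any vector library. RRM1, the large subunit with the catalytic site, stood at 36.0, 66.2 and 43.1 FPKM with vector and at 151, 118 and 95.4 FPKM with FOXK2. Its means were 48.4 ± 15.8 and 121 ± 27.8 FPKM (SD, n = 3 each), with a log2 difference of 1.33 and a standard error of 0.25. RRM2, the small subunit that carries the radical and sets activity in S phase, stood at 23.7, 34.0 and 44.4 FPKM with vector and at 71.8, 78.3 and 65.1 FPKM with FOXK2. Its means were 34.0 ± 10.3 and 71.7 ± 6.62 FPKM, with a log2 difference of 1.09 and a standard error of 0.22. The spread among the vector libraries was wide for both subunits, and in neither group was the library with the highest RRM1 the one with the highest RRM2.

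Most of the RRM1 signal was given to ENST00000534285, a form of 570 codons whose annotated start lies 21269 bases downstream of that of the full transcript. It stood at 21.5, 54.3 and 35.7 FPKM with vector and at 107, 79.2 and 83.2 FPKM with FOXK2. The full transcript ENST00000300738, with 792 codons, stood at 14.5, 11.9 and 7.37 FPKM with vector and at 43.2, 38.7 and 12.2 FPKM with FOXK2. The shorter form did not overlap between the groups and the full one did, FOXK2 replicate 3 lying among the vector libraries. The forms share 86.4% of the exonic bases of the shorter one.

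For RRM2 the vector libraries differed in which transcript was listed. ENST00000615152, with 449 codons, stood at 14.1, 20.0 and 1.49 FPKM with vector and at 60.4, 63.9 and 53.3 FPKM with FOXK2. In vector replicate 3 the signal lay instead on ENST00000304567 at 20.8 FPKM and on ENST00000641198 at 20.4 FPKM, both with 389 codons. ENST00000641198 was listed at 0 in the other 5 libraries. Pairs of RRM2 transcripts share at least 79.5% of the exonic bases of the shorter one. When the most abundant transcript stood for the gene, the RRM2 difference was 2.70 instead of 1.09, vector replicate 3 being the low library of that transcript.

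**Figure D1:**
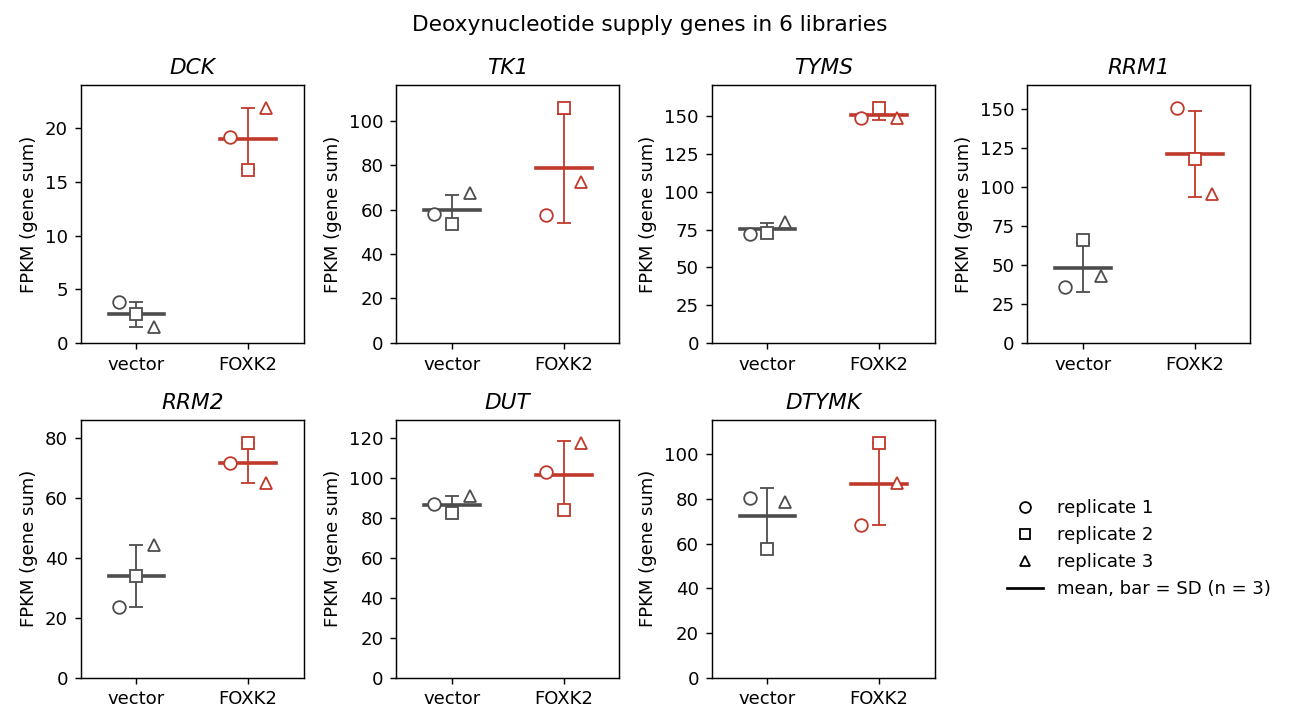
Level of each gene in FPKM (vertical axis, from 0) in the 3 vector and 3 FOXK2 libraries; symbols mark replicate numbers, lines the group mean and bars the SD. DCK, TYMS, RRM1 and RRM2 do not overlap between the groups, while TK1, DUT and DTYMK do.

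TYMS, the thymidylate synthase, had the smallest standard error of the 7 genes. It stood at 72.5, 73.0 and 80.1 FPKM with vector and at 149, 155 and 149 FPKM with FOXK2. The groups were well separated, with means of 75.2 ± 4.29 and 151 ± 3.66 FPKM (SD, n = 3 each), a log2 difference of 1.00 and a standard error of 0.10. All 3 listed transcripts were higher in every FOXK2 library; the main one, ENST00000323274 with 313 codons, stood at 66.5, 68.1 and 76.3 FPKM against 140, 146 and 140 FPKM. TYMS overlaps an antisense partner, ENOSF1, which was not listed, and the sources used here do not say whether reads were assigned by strand.

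DUT, the dUTPase, overlapped between the groups as a sum. It stood at 86.7, 82.2 and 90.6 FPKM with vector and at 103, 84.0 and 117 FPKM with FOXK2, with FOXK2 replicate 2 inside the vector range. The means were 86.5 ± 4.20 and 101 ± 16.7 FPKM, with a log2 difference of 0.22 and a standard error of 0.14. Its transcripts did not move together. ENST00000455976, with 164 codons and known as the nuclear form, stood at 37.0, 29.9 and 32.2 FPKM with vector and at 72.5, 49.7 and 69.5 FPKM with FOXK2. Each FOXK2 library was above each vector library, and the form's share of the DUT sum was 35.5 to 42.7% with vector and 59.2 to 70.4% with FOXK2. ENST00000558813, with 141 codons, went the other way, from 25.9, 25.4 and 24.8 FPKM to 15.1, 15.8 and 17.6 FPKM, again without overlap. ENST00000331200, with 252 codons and known as the precursor of the mitochondrial form, stood at 16.3, 16.7 and 19.2 FPKM with vector and at 8.40, 7.97 and 21.1 FPKM with FOXK2, and overlapped through FOXK2 replicate 3.

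Grouping the 8 DUT transcripts by annotated start, a grouping chosen after their values were seen, gave sums that differed in opposite directions. The 3 transcripts of the downstream start, whose window holds the pair of E2F words, summed to 39.3, 34.2 and 35.1 FPKM with vector and to 73.8, 52.4 and 71.9 FPKM with FOXK2. The 5 transcripts of the upstream starts summed to 47.4, 48.1 and 55.6 FPKM with vector and to 29.2, 31.6 and 45.4 FPKM with FOXK2. Neither sum overlapped between the groups, the first being higher and the second lower with FOXK2. The sums follow the abundant forms, and single transcripts went against them. ENST00000559416, of an upstream start, was higher with FOXK2 without overlap, at 3.48, 3.75 and 5.31 FPKM against 5.56, 6.91 and 5.72 FPKM. ENST00000559540, of the downstream start, had means of 2.07 and 0.890 FPKM with overlapping groups. The downstream start made up 45.3, 41.5 and 38.7% of the DUT sum with vector and 71.6, 62.4 and 61.3% with FOXK2. The GC and length correction described below was not made for single transcripts. ENST00000455976 has 41.0% GC, ENST00000558813 45.6%, ENST00000331200 44.2% and ENST00000559416 51.0%. The part of GC content in these values was not tested. Transcripts of different starts share much of their sequence, ENST00000331200 and ENST00000455976 91.5% of the exonic bases of the shorter, so these values also depend on how reads were divided.

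**Figure D2:**
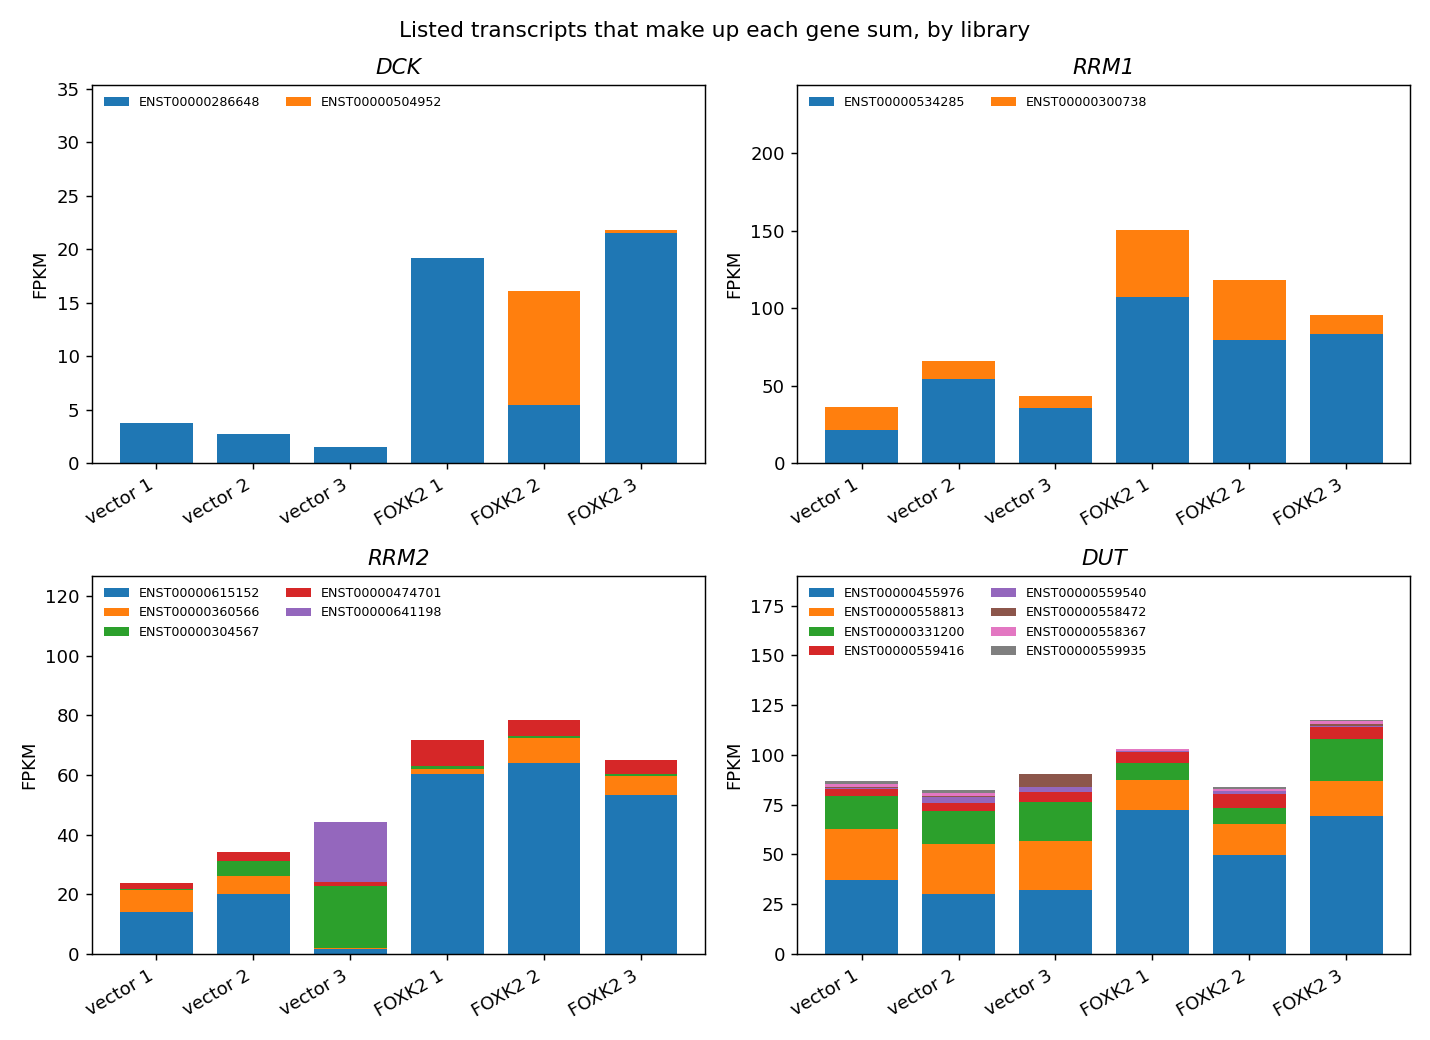
Stacked FPKM (vertical axis, from 0) of the listed transcripts of DCK, RRM1, RRM2 and DUT in each library. In FOXK2 replicate 2 the DCK signal lies mainly on ENST00000504952, in vector replicate 3 the RRM2 signal lies on ENST00000304567 and ENST00000641198, and ENST00000455976 makes up more of DUT in the FOXK2 libraries.

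TK1 and DTYMK, which phosphorylate thymidine and thymidylate, overlapped between the groups. TK1, the cytosolic thymidine kinase of S phase, stood at 58.0, 53.6 and 67.3 FPKM with vector and at 57.6, 105.6 and 72.4 FPKM with FOXK2. FOXK2 replicate 2 was the high library and FOXK2 replicate 1 lay within the vector range. Its means were 59.6 ± 6.97 and 78.5 ± 24.5 FPKM, with a log2 difference of 0.35 and a standard error of 0.22. DTYMK, the thymidylate kinase, stood at 80.6, 57.6 and 78.8 FPKM with vector and at 68.3, 105.1 and 87.4 FPKM with FOXK2. It showed the same order among the FOXK2 libraries as TK1, and its means of 72.3 ± 12.8 and 86.9 ± 18.4 FPKM differed by 0.26 on the log2 scale with a standard error of 0.20. FOXK2 replicate 2 was the highest FOXK2 library for 4 of the 7 genes, TK1, TYMS, RRM2 and DTYMK, and the lowest for DCK and DUT.

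Taking the members as a list, 4 of 7 passed the adjusted p threshold of 0.05 in limma across all genes, DCK, TYMS, RRM1 and RRM2, all higher with FOXK2, where 36.3% of the 10302 tested genes passed in either direction and 17.6% were called higher. Likewise 4 of 7 did not overlap between the groups and were higher, where 25.7% of all tested genes met that rule and 52% did not overlap in either direction. Without FOXK2 replicate 2, the library with LYZ, 5 of 7 were called, DUT being added, where 46.3% of all genes tested were called. Nothing is read from these counts, since the members were chosen with the contrast known. All 7 means were higher with FOXK2, and they stayed so under each of 18 other settings; the median log2 difference was 1.00 over the members and 0.01 over all tested genes. The members ranged from DCK, at 2.49, to DUT, at 0.22. Of their 24 listed transcripts, 17 had a higher mean with FOXK2. Of the 23 that were tested, 10 were higher without overlap, where 16.7% of all 21273 tested transcripts were, and 1, ENST00000558813 of DUT, was lower without overlap, where 18.5% were. The count of all genes called, 3741, fell to 2271 without vector replicate 2, 2006 without vector replicate 3, 2358 without FOXK2 replicate 1 and 1950 without FOXK2 replicate 3, and was 4778 without FOXK2 replicate 2.

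Within a library, ratios of the gene sums do not depend on how the library was scaled, but they still carry its GC trend, described below. TK1 to DCK, the thymidine kinase against the deoxycytidine kinase, was 15.3, 19.6 and 45.2 with vector and 3.01, 6.56 and 3.32 with FOXK2. DUT to TYMS was 1.20, 1.13 and 1.13 with vector and 0.691, 0.541 and 0.788 with FOXK2, and DTYMK to TYMS was 1.11, 0.789 and 0.983 against 0.458, 0.677 and 0.587. These 3 ratios were lower in every FOXK2 library than in any vector library. With the GC and length correction, the log2 differences of TK1 and DCK were 0.91 and 2.06, against 0.35 and 2.49 without it. Those of DTYMK and TYMS were 0.83 and 1.08, against 0.26 and 1.00, so both pairs lay closer together. DUT and TYMS lay farther apart, at 0.01 and 1.08 against 0.22 and 1.00. The ratios themselves were not recalculated with the correction. The ratio of the small to the large reductase subunit, RRM2 to RRM1, was 0.659, 0.514 and 1.03 with vector and 0.477, 0.665 and 0.682 with FOXK2, and overlapped.

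**Figure D3:**
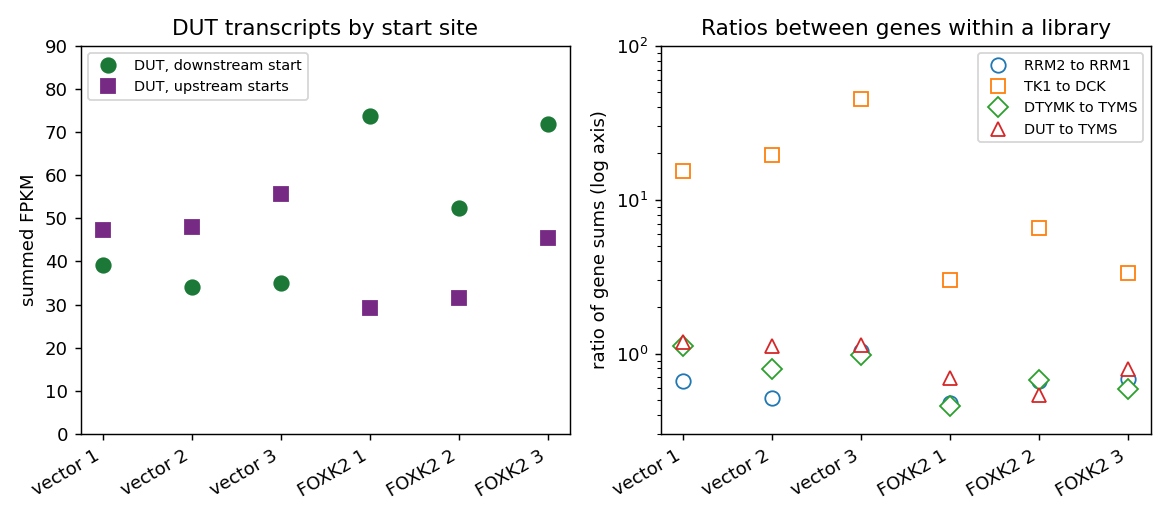
Left, summed FPKM of DUT transcripts from the downstream start (circles) and the upstream starts (squares) in each library. Right, ratios between gene sums within each library on a log axis; TK1 to DCK lies at 15.3 or above with vector and at 6.56 or below with FOXK2.

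The fold changes of all genes moved with GC content, the share of G and C bases in the listed transcripts, and this touches the members unequally. In the tenth of genes with the lowest GC content, with a median of 37.9%, 362 of 1031 rose and 28 fell. In the tenth with the highest, with a median of 64.5%, 21 rose and 455 fell. DCK had 38.4% GC, DUT 43.4%, RRM2 43.9%, RRM1 44.4%, TYMS 49.8%, DTYMK 59.7% and TK1 61.7%. After each library's trend on GC content and length was removed, the log2 difference was 2.06 for DCK, 1.08 for TYMS, 1.06 for RRM1, 0.91 for TK1, 0.83 for DTYMK, 0.73 for RRM2 and 0.01 for DUT. With that correction 5 of 7 were called, TK1 and DTYMK gaining the call and RRM2 losing it, where 30.2% of all tested genes were called and 15.9% were called higher. The slope of the trend was 0.158, 0.163 and 0.300 per 10 points of GC with vector and -0.378, -0.0128 and -0.231 with FOXK2, so FOXK2 replicate 2, the high library of TK1 and DTYMK, lay nearest to the vector libraries. Whether the trend is technical was not tested.

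**Figure D4:**
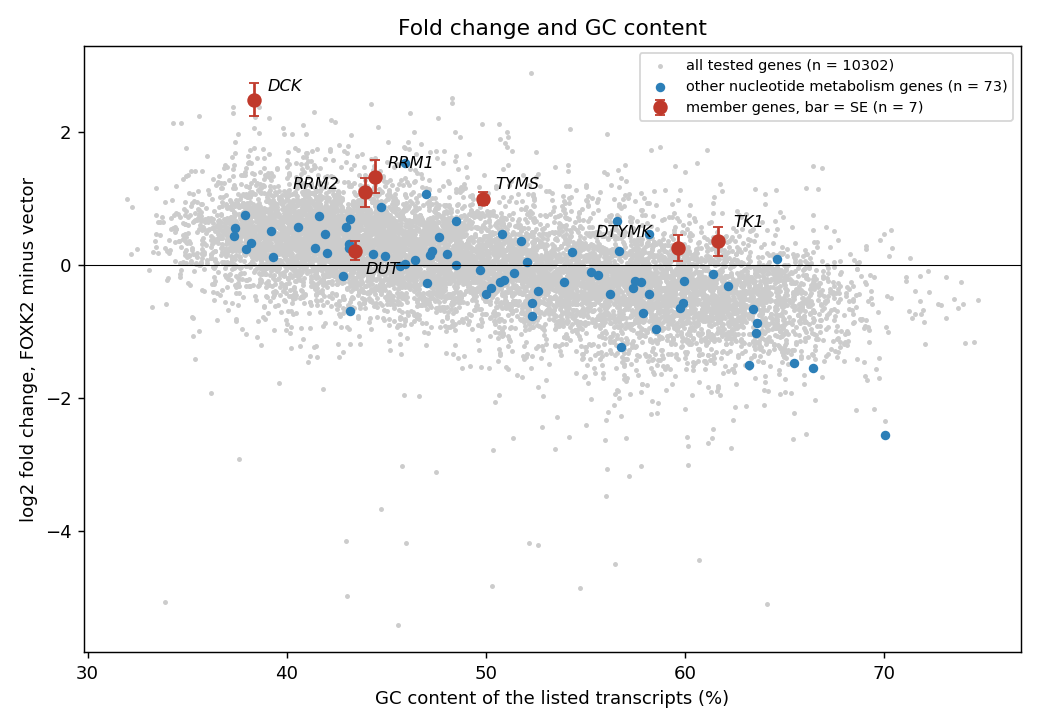
Log2 fold change, FOXK2 minus vector (vertical axis), against GC content of the listed transcripts in percent (horizontal axis) for 10302 tested genes (grey), 73 other nucleotide metabolism genes (blue) and the 7 members (red, bars are standard errors). The cloud slopes downwards, and TK1 and DTYMK, at 61.7 and 59.7% GC, have values of 0.35 and 0.26.

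The other genes of nucleotide metabolism went both ways. Of a list of 80, which was written with earlier results of these data known, 75 were listed and 73 tested; 13 rose, 16 fell and 44 were not called, with a median log2 difference of 0.00. For all genes 17.6% were called higher and 18.7% lower. With the GC and length correction 13 rose and 9 fell, 8 and 7 of them in both fits, where 15.9% and 14.3% of all genes were called, and with each library scaled to the same sum 17 rose and 12 fell. Leaving out vector replicate 2 left 7 that rose and 9 that fell, leaving out FOXK2 replicate 3 left 8 and 10, leaving out vector replicate 3 left 8 that fell, and leaving out FOXK2 replicate 1 left 10 that fell. The median GC content was 44.8% for those that rose and 59.8% for those that fell.

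The folate cycle that feeds TYMS held 4 genes that rose among 9 tested. GGH, which trims the glutamate tail of folates, rose from 35.2 ± 5.06 to 74.1 ± 3.30 FPKM (SD, n = 3 each; log2 difference 1.06, adjusted p = 0.0019), and MTHFD1, which makes folate one-carbon units, from 67.6 ± 7.85 to 107 ± 5.84 FPKM (0.66, adjusted p = 0.0077). MTHFD1L, its mitochondrial relative, also rose, from 29.3 ± 4.15 to 40.6 ± 2.22 FPKM. FPGS, which adds the glutamates that GGH removes, fell by 0.66 on the log2 scale, and by 0.14 with the GC and length correction, where it was not called.

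Genes that break nucleosides and nucleotides down, or clean the pool, held 5 that fell and 2 that rose among 17. TYMP, which splits thymidine and so opposes TK1, fell from 50.6 ± 4.00 to 7.91 ± 1.92 FPKM (log2 difference -2.56, adjusted p = 0.00021). DNPH1, which removes damaged deoxynucleoside monophosphates, fell from 128 ± 17.4 to 45.2 ± 12.0 FPKM (-1.51, adjusted p = 0.0028). NT5C, a nucleotidase that strips phosphate from deoxynucleotides, fell from 18.5 ± 2.22 to 6.25 ± 2.32 FPKM (-1.47, adjusted p = 0.0044). All 3 have high GC content, TYMP 70.0%, and all 3 still fell with the GC and length correction, by 1.90, 0.73 and 0.71 on the log2 scale. ITPA, which clears deaminated purine nucleotides, and ADA, which deaminates adenosine and deoxyadenosine, also fell, but not with that correction. NUDT5, a hydrolase of oxidised nucleotides, rose by 0.42 on the log2 scale (adjusted p = 0.031), also with the correction, a call lost in 8 of 18 alternatives, among them the replicate block and leaving out any library but FOXK2 replicate 2. SAMHD1, which degrades deoxynucleoside triphosphates outside S phase, stood at 17.3 ± 3.35 and 19.3 ± 2.71 FPKM and was not called.

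Among the partners of the reductase, RRM2B, the small subunit used in resting cells and after DNA damage, stood at 3.18 ± 0.604 FPKM with vector and 5.27 ± 1.73 FPKM with FOXK2, with overlapping groups and no call (adjusted p = 0.11). GLRX, a reductant of the enzyme, fell by 0.69 on the log2 scale (adjusted p = 0.044), a call lost in 7 of 18 alternatives, among them leaving out any library but FOXK2 replicate 2. TXN, the other reductant, stood at 435 ± 46.2 and 388 ± 17.5 FPKM without a call. Of the nucleoside transporters, SLC29A1 rose from 16.4 ± 1.32 to 26.7 ± 4.24 FPKM (0.66, adjusted p = 0.014), a call lost without vector replicate 2 (adjusted p = 0.053). SLC29A3, a transporter of lysosomes and mitochondria, fell from 2.78 ± 0.511 to 0.593 ± 0.159 FPKM (-1.24, adjusted p = 0.0025).

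The other nucleoside kinases differed in both directions. DGUOK, the mitochondrial kinase of deoxyguanosine, fell by 0.44 on the log2 scale and TK2, the mitochondrial thymidine kinase, stood at 8.78 ± 1.27 and 5.65 ± 1.74 FPKM without a call. ADK, the adenosine kinase, rose by 0.51 and UCKL1 fell by 0.58; with the GC and length correction DGUOK, ADK and UCKL1 were not called. Of 11 mono- and diphosphate kinases 4 fell, NME3, GUK1, NME2 and AK1, and 0 rose. NME3 fell from 6.79 ± 0.751 to 1.71 ± 0.642 FPKM and still fell with the correction, while the calls of the other 3 were lost and NME2 moved from -0.65 to 0.02; NME1 and NME2 are near-identical neighbours whose shared reads make both uncertain. DCTD, which makes dUMP from dCMP, was not called.

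In purine synthesis and salvage 5 genes rose and 2 fell among 14. PRPS2, which makes the ribose phosphate used by all nucleotides, rose from 10.7 ± 2.00 to 33.7 ± 10.3 FPKM (1.54, adjusted p = 0.0039). IMPDH2, the first step towards guanine nucleotides, fell from 167 ± 11.6 to 98.0 ± 16.2 FPKM (-0.77, adjusted p = 0.0073). The synthesis enzymes PAICS, GMPS and PPAT and the salvage enzyme HPRT1 rose and the salvage enzyme APRT fell, of which HPRT1 alone kept its call with the GC and length correction. Of 5 pyrimidine synthesis genes 0 rose and 0 fell; with the GC and length correction CTPS1 fell. Without the correction 29 genes of the whole list were called, and 10 of them stayed called under every other setting that tested them. Of these 4 rose, GGH, MTHFD1 and PRPS2 among them, and 6 fell, TYMP, DNPH1, NT5C, SLC29A3, NME3 and IMPDH2. Leaving out a single library ended the call of SLC29A1 (vector replicate 2), of UCKL1 (vector replicate 3) and, for 3 or more of the 6 libraries each, of GLRX, DGUOK, ADK, GUK1, AK1, NME2, MTHFD1L, FPGS, ADA, NUDT5 and PPAT.

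**Figure D5:**
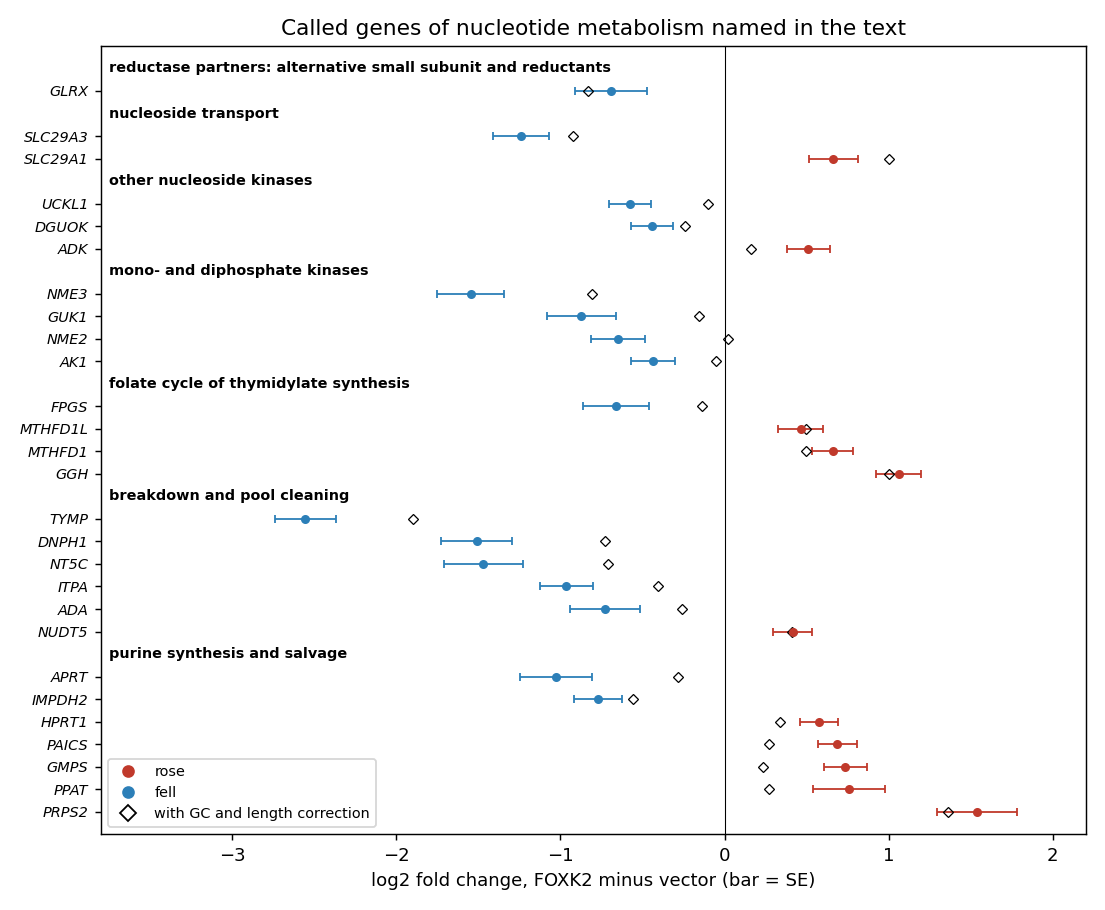
Log2 fold change, FOXK2 minus vector, with standard error (horizontal axis) for the called nucleotide metabolism genes named in the text, by role; red rose and blue fell, and diamonds give the value with the GC and length correction. TYMP lies farthest to the left at -2.56 and PRPS2 farthest to the right at 1.54.

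The E2F factors, their pocket proteins, the MuvB complex and the factors that degrade RRM2 and TK1 form a list of activators and repressors. Of 22 tested, 10 rose and 1, E2F4, fell, where 17.6% of all tested genes were called higher and 18.7% lower. With the GC and length correction 7 rose and 2 fell, E2F4 not among them, where 15.9% and 14.3% of all genes were called. This list and the cell cycle lists below were written with earlier results of these data known. E2F8 and E2F7, which repress E2F targets late in S phase, rose from 2.44 ± 0.234 to 10.3 ± 1.47 FPKM (1.70, adjusted p = 0.00064) and from 4.44 ± 0.304 to 12.4 ± 2.73 FPKM (1.28, adjusted p = 0.0027). FOXM1, a forkhead activator of mitotic genes, rose from 16.4 ± 1.91 to 39.1 ± 3.12 FPKM (1.21, adjusted p = 0.0012), and RBL1, a pocket protein that binds E2F factors, rose by 1.05 (adjusted p = 0.0093). E2F1, an activator of the G1 to S switch, stood at 31.5 ± 5.10 and 23.9 ± 5.56 FPKM and was not called (adjusted p = 0.15). Without vector replicate 1, vector replicate 3 or FOXK2 replicate 3, the number that rose was 6, 5 and 5.

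Lists of S-phase genes and of G2 and mitosis genes gave the following values. Of 44 S-phase genes, a list without the members, 29 rose and 2 fell, CCNE1 and UNG, with a median log2 difference of 0.66. For all tested genes 17.6% were called higher and 18.7% lower, and 15.9% higher with the GC and length correction. The count of S-phase genes that rose was 26 with that correction and 19 without FOXK2 replicate 3. PCNA, the sliding clamp of replication, rose from 181 ± 21.9 to 295 ± 7.48 FPKM (0.71, adjusted p = 0.0047). All 30 of the tested G2 and mitosis genes rose, with a median of 1.73, and all 30 did with the correction. The proliferation marker MKI67 stood at 15.8 ± 2.96 FPKM with vector and rose to 92.4 ± 30.5 FPKM (2.44). The members' median of 1.00 lay between the medians of those lists, and its part shared with the number of cycling cells was not tested. Single members did not all lie there. DCK, at 2.49, was above the largest value of either list, 1.38 for S phase and 2.44 for G2 and mitosis. The latter was that of MKI67, and the standard error of DCK, 0.25, was larger than the distance between them. With the GC and length correction DCK, at 2.06, lay below MKI67 and above every other gene of both lists. TK1, DTYMK and DUT, at 0.35, 0.26 and 0.22, were below the S-phase median. That median was 0.61 with the GC and length correction. TK1 and DTYMK, at 0.91 and 0.83, then lay above it and DUT, at 0.01, below it.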

How the data were processed

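RNA-seq libraries of CAL-62 cells, 3 with vector and 3 with FOXK2, were grouped by the titles given by the submitters. Per the labels' protocols, total RNA was made into libraries with a stranded kit using dUTP. Per the submitters' processing notes, cutadapt, HISAT2 2.1.0, StringTie and hg19 were used; their roles and settings are not stated. The values the authors deposited were taken as FPKM per transcript because those notes name StringTie, since the header gives no unit. The table listed 31009 transcripts, and the smallest larger group mean was 0.500; 30893 matched GENCODE 29, used for names, GC content and length, and 116, with 0.211% of the signal, did not.

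Transcripts were summed per gene symbol. Gene sums were tested as log2(FPKM + 1) with limma 3.58.1 in R 4.3.3 (group term and moderated variances following an intensity trend). The test was two-sided and covered the 10302 genes whose mean reached 1 FPKM, with Benjamini-Hochberg adjusted p-values under 0.05 called. Fold changes on this scale understate those of low genes. Of 200 low products of value and length, 5.0% were whole multiples within 0.02 of a step, so no reads were recovered, depth is unknown and no counting interval is given. The fit was tested on simulated data.

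The members and all gene lists were chosen with earlier results of these data known. Named genes are the members, FOXK2, MKI67 and PCNA, up to 4 of smallest p per role or list, and the genes of nearest profile; others named are called genes or were chosen after their values were seen. The GC and length correction removed a spline trend with 4 degrees of freedom per library. Other alternatives were pseudocounts of 0.1 and 0.5, no filter or 5 FPKM, quantile, median ratio and equal-sum scaling, no trend, a replicate block, the most abundant transcript and leaving out each library. Promoter windows came from RefSeq on GRCh38.p14; no coordinates of the deposited build are printed. A few genes of these lists are counted but not reported by name here. RRM2, DUT and TYMS have processed pseudogene copies, so the division of shared reads is uncertain. Libraries with the same number did not deviate together, so the numbers were not taken as pairs.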

Additional observations from a re-analysis of the deposited data

How the results depend on the processing

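The 7 members kept a positive log2 difference under all 18 alternatives, and their calls numbered 4 to 5. The differences ranged from 2.01 to 2.87 for DCK, 0.97 to 1.12 for TYMS, 1.06 to 1.57 for RRM1, 0.73 to 2.70 for RRM2, 0.12 to 0.91 for TK1, 0.01 to 0.92 for DUT and 0.10 to 0.83 for DTYMK. DUT was called without FOXK2 replicate 2 and with the most abundant transcript, and RRM2 lost its call with the GC and length correction and with the most abundant transcript. Equal-sum scaling moved the median of all genes from 0.01 to 0.13. It moved the share of called genes that were higher from 48.4 to 59.2% over all genes and from 44.8 to 58.6% over the nucleotide metabolism list; the correction gave 59.1% for that list.

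Same-numbered libraries had correlations of 0.126, -0.168 and -0.0562 between their deviations, so the numbers are not known to pair cultures. With the replicate block 2982 genes were called, and 11 nucleotide metabolism genes rose and 13 fell. The block together with the GC and length correction gave 2124 genes, 8 nucleotide metabolism genes that rose and 8 that fell, and 6 regulators that rose. The correction alone gave 9 nucleotide metabolism genes and 2 regulators that fell. The most abundant transcript gave 2143 genes, 47 called regulators and cell cycle genes, 5 regulators that rose and 0 that fell, and 16 S-phase genes that rose and 1 that fell.

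Leaving out 1 library at a time gave 1950 to 4778 called genes, 7 to 16 nucleotide metabolism genes that rose and 8 to 18 that fell, 5 to 10 regulators that rose and 0 to 2 that fell, 19 to 28 S-phase genes that rose and 1 to 2 that fell, and 55 to 72 called regulators and cell cycle genes in all.

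Genes without a call changed sign, and so did NME2, which was called. TXN became 0.077 with quantile normalization and SLC25A33 0.080 with equal-sum scaling. With the GC and length correction, with or without the block, DCTD became 0.070, NME2 0.019, SLC25A36 -0.078, CTPS2 -0.20 and UMPS -0.089. Leaving out 1 library at a time gave -0.055 to 0.029 for SLC25A33 and -0.045 to 0.45 for UMPS. The cause of these changes was not tested. The unknown depth sets the limit for low genes such as DCK with vector.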

Other observations

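Profiles over the 6 libraries were compared by the root mean square difference of centred log2(FPKM + 1) values among the tested genes. Among those nearest to DCK were DLGAP5, a mitotic spindle gene, at 0.182, CAMK2N1, an inhibitor of CaM kinase II, at 0.229, KHDRBS3, an RNA-binding protein, at 0.234 and ECT2, which starts cytokinesis, at 0.237. DLGAP5 stood at 12.0, 9.39 and 6.84 FPKM with vector and at 66.0, 38.2 and 56.1 FPKM with FOXK2, so it shared with DCK the low vector replicate 3 and the low FOXK2 replicate 2. TYMS lay nearest to WBP11, a splicing factor, at 0.0439 and to GINS3, a subunit of the replicative helicase, at 0.0588. GINS3 stood at 8.93, 8.85 and 10.7 FPKM with vector and at 20.0, 22.0 and 18.8 FPKM with FOXK2. RRM1 lay nearest to MAPRE2 and PIK3R1, at 0.178 and 0.185, and RRM2 to NPIPB5 and PRICKLE1, at 0.0971 and 0.139. The genes that overlapped between the groups were nearest to genes that did likewise: TK1 to NCAPH2, a condensin subunit, at 0.0761 and HIST1H4C at 0.0772, DTYMK to ARRB2 at 0.0761 and CACNB1 at 0.0904, and DUT to AKAP17A at 0.0423 and MKRN2 at 0.0539. NCAPH2 stood at 29.9, 26.0 and 29.1 FPKM with vector and at 26.4, 51.4 and 34.7 FPKM with FOXK2, with FOXK2 replicate 2 high as for TK1. These distances describe 6 libraries and the profiles share the group difference and each library's GC trend.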
